A study of Mus musculus with 4 samples.

Results

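The genes described here encode 9 enzymes and chaperones of collagen maturation. P4ha1, P4ha2, P4hb, Plod1, Plod2, Plod3, Loxl2, Serpinh1 and Crtap were chosen by name, as hydroxylases of collagen and the proteins that fold or crosslink it, and each of the 9 symbols matched 1 row of the 55401 genes in the count table. They were measured by RNA-seq of poly(A) RNA in mouse embryonic stem cells (mESCs), which are pluripotent cells of the early embryo grown here with LIF and inhibitors of GSK3 and MEK. All 4 libraries came from the ZBTB21-degron line, in which a mini auxin-inducible degron fused to GFP was knocked into both alleles of Zbtb21, a zinc finger transcription factor gene of the BTB domain family, and the plant F-box protein OsTIR1 was placed at Rosa26. The degron cells (2 libraries) were kept in 1 µg/ml doxycycline over 24 h, followed by 24 h in 500 µM indole acetic acid (IAA), the auxin that sends the tagged protein to destruction, and the untreated cells (2 libraries) were the same line without IAA. Whether the untreated cells had doxycycline, how many clones were used and whether replicates were separate cultures is not stated. Therefore, the spread behind each p-value is that of the libraries and may be technical, and the effects of loss of ZBTB21 and of the added compounds cannot be told apart.

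Collagen chains are modified while they are being made in the endoplasmic reticulum. Prolyl 4-hydroxylase and the lysyl hydroxylases add hydroxyl groups to proline and lysine, using molecular oxygen, iron, 2-oxoglutarate and ascorbate. Hydroxyproline keeps the collagen helix stable at body temperature, and hydroxylysine carries sugars and later takes part in crosslinks. HSP47 and the complex that contains CRTAP act on the folding chains, and lysyl oxidases crosslink the secreted collagen outside the cell. Several of these genes, among them P4ha1, P4ha2, Plod1, Plod2 and Loxl2, are known targets of hypoxia-inducible factor (HIF) in cells that lack oxygen. Pluripotent cells and the primitive endoderm next to them in the embryo lay down basement membranes, in which type IV collagen is a main component.

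The libraries held 9055498 and 8344408 counts in degron cells, against 10604451 and 9431642 counts in untreated cells. Levels are given as CPM, the counts scaled to a common library size with TMM factors, a scaling that lines up the bulk of genes between libraries. The smallest two-sided p that an exact permutation test can give for 2 against 2 libraries is 0.333, so differences were tested with edgeR's quasi-likelihood test across 13916 genes, with Benjamini-Hochberg adjustment and a threshold of 0.05. Zbtb21 mRNA was higher in degron cells (129.6 and 133 CPM) than in untreated cells (61.7 and 56.9 CPM), which does not check the labels because the degron acts on the protein. All 10 markers of embryonic stem cells that were looked up, such as Pou5f1 and Nanog, were expressed. Their sum was 5339 and 5431 CPM in degron cells, against 5865 and 6126 CPM in untreated cells. By edgeR 5 of them fell and 2 rose, where 21.6% of all tested genes fell and 22.2% rose. Utf1 and Tdgf1 fell most clearly (log2 fold changes -1.43 and -0.83), whereas Klf4 rose (0.72). The sum of 14 fibroblast markers was 25.9 and 26.5 CPM in degron cells and 25.1 and 26.3 CPM in untreated cells. Of these markers 6, including Dcn, Lum and Postn, had 0 counts in every library. Only 5 were tested, of which Thy1 fell (log2 fold change -1.75) and Pdgfrb rose (0.72), so the nearly equal sums hide opposite changes. For 15 markers of primitive endoderm the sum was 1897 and 1899 CPM in degron cells and 1525 and 1489 CPM in untreated cells, mostly from Lamc1 and Sparc. Of 12 such markers that were tested, 4 rose (Lamc1, Lama1, Sparc and Gata4) and 2 fell (Col4a1 and Lamb1), with a median log2 fold change of 0.33. Gata4 had 9.27 and 10.4 CPM in degron cells, against 6.15 and 6.94 CPM in untreated cells, while Gata6 had 1 to 3 counts per library. The part of other cell types in the results was not tested, and in such bulk libraries fewer cells of a type and less RNA per cell cannot be told apart.

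In degron cells, 4 of the 9 collagen-processing genes were higher and 5 lower at an edgeR adjusted p under 0.05, where 22.2% of tested genes were higher, 21.6% lower and 43.8% called in either direction. Serpinh1, Crtap, Plod3 and Plod1 rose, and P4ha1, Plod2, P4ha2, P4hb and Loxl2 fell. Thus each enzyme family was split or unequal: the alpha subunits of prolyl 4-hydroxylase fell with little change of the beta subunit, and among the lysyl hydroxylases Plod2 fell whereas Plod1 and Plod3 rose. Both degron libraries lay on the same side of both untreated libraries for all 9 genes, as they did for 70.6% of tested genes. DESeq2 called 7 of the 9 genes, against 21.5% of the genes to which it gave an adjusted p, and missed Plod1 and Plod3. Against a 1.5-fold minimum, 4 of them (Serpinh1, P4ha1, Plod2 and Loxl2) were called, where 3.78% of tested genes were. Of the 9 genes, 8 had at least 89 counts in every library. Loxl2 passed the filter on low counts through the untreated libraries alone.

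**Figure D1:**
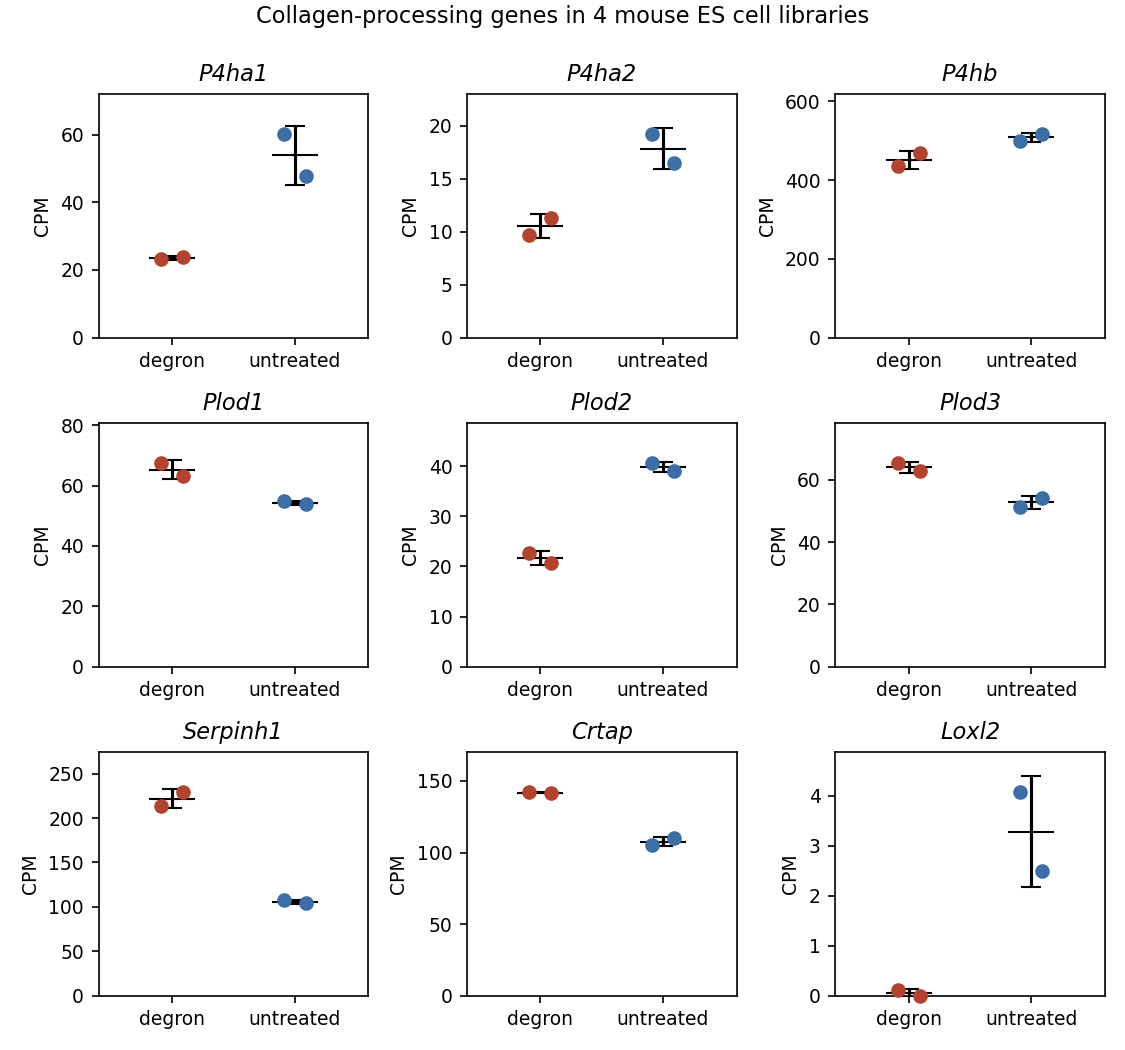
Levels of the 9 collagen-processing genes, in CPM (vertical axes, linear and from 0), with degron libraries left and untreated libraries right in each panel. Points are libraries, and black lines are the mean ± SD of 2 libraries. P4ha1, P4ha2, P4hb, Plod2 and Loxl2 lie lower and Plod1, Plod3, Serpinh1 and Crtap higher in degron cells. The groups do not overlap, as for 70.6% of tested genes.

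Prolyl 4-hydroxylase is a tetramer of catalytic alpha subunits and of the beta subunit P4HB, which is protein disulfide isomerase and also acts on its own in many other proteins. P4ha1 (ENSMUSG00000019916.14, chromosome 10, 59323296 to 59373304, plus strand, mm10), the main alpha subunit gene, had 212 and 200 counts in degron cells, against 635 and 441 counts in untreated cells. These are 23.1 and 23.9 CPM in degron cells, against 60.1 and 47.8 CPM in untreated cells. Both degron libraries were low and nearly equal, whereas the untreated libraries differed 1.26-fold from each other, with a chi-square of 13.7 where sampling noise alone gives about 1. P4ha1 was 2.31-fold lower in degron cells (log2 fold change -1.21 ± 0.09, SE; edgeR adjusted p = 1.62e-18), and 1.89% of tested genes had a lower log2 fold change. Without untreated replicate 1 the log2 fold change was -1.03 and without untreated replicate 2 it was -1.35, and the call held both times.

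P4ha2 (ENSMUSG00000018906.14, chromosome 11, 54100095 to 54131665, plus strand), which encodes the second alpha subunit, was less abundant. It had 89 and 95 counts in degron cells, against 203 and 152 counts in untreated cells, or 9.71 and 11.3 CPM against 19.2 and 16.5 CPM. P4ha2 was 1.71-fold lower in degron cells (log2 fold change -0.77 ± 0.14, SE; edgeR adjusted p = 6.56e-06), with 4.97% of tested genes at a lower log2 fold change. P4ha2 was not called against a 1.5-fold minimum (adjusted p = 0.421). The gene of the third alpha subunit, P4ha3, had 0 counts in both degron libraries, against 1 and 0 counts in the untreated libraries, so it was not tested.

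P4hb (ENSMUSG00000025130.11, chromosome 11, 120560298 to 120573253, minus strand) was the most abundant of the 9 genes, with 3994 and 3917 counts in degron cells, against 5281 and 4765 counts in untreated cells. Its levels were 436 and 468 CPM in degron cells, against 500.0 and 517 CPM in untreated cells. The fall was small, 1.13-fold (log2 fold change -0.17 ± 0.05, SE; edgeR adjusted p = 0.00821), and 30.0% of tested genes had a lower log2 fold change. The degron pair itself differed 1.07-fold, with a chi-square of 9.99. Without degron replicate 1, the library with the lower level, P4hb was no longer called (log2 fold change -0.12, edgeR adjusted p = 0.304).

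Levels of different genes can be compared only per length, here as CPM per kb of annotated exons. On this scale P4ha1 and P4ha2 together had 7.18 and 7.62 CPM per kb in degron cells, against 17.7 and 14.3 CPM per kb in untreated cells, a mean ratio of 0.463. P4hb had 152 and 164 CPM per kb in degron cells, against 175 and 181 CPM per kb in untreated cells. Its mRNA therefore exceeded that of the alpha subunits 21.2- and 21.4-fold in degron cells, against 9.88- and 12.7-fold in untreated cells. The ratio of P4ha1 to P4ha2 was 3.61 and 3.19 in degron cells, against 4.74 and 4.40 in untreated cells, and P4ha1 was the larger of the alpha subunit transcripts in each of the 4 libraries. These ratios are descriptions without a test.

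**Figure D2:**
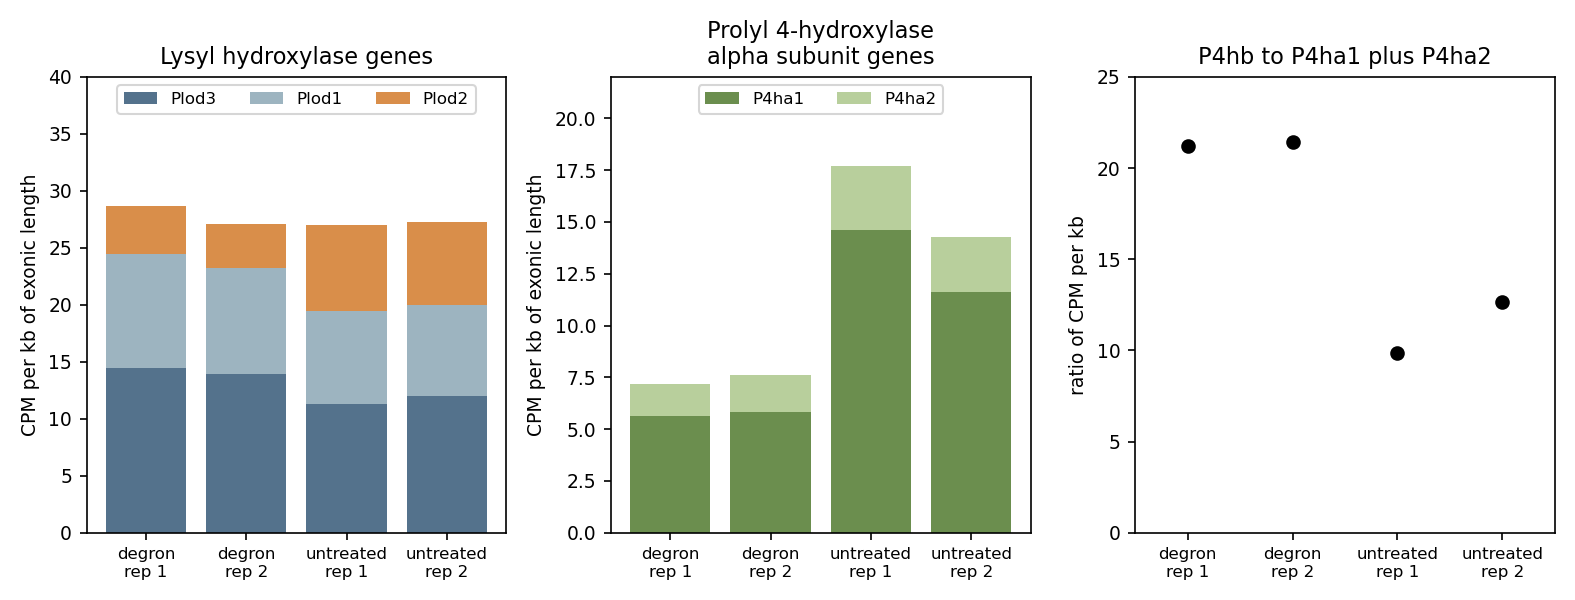
Isozyme composition in each library, degron left and untreated right. The left panel stacks the CPM per kb of Plod3, Plod1 and Plod2, the middle panel stacks P4ha1 and P4ha2, and the right panel gives the ratio of P4hb to the sum of P4ha1 and P4ha2. The Plod stack keeps nearly the same height with a thinner Plod2 part in degron cells, and the P4ha stack is lower in degron cells.

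The sequence just before the transcription start is shown for the 3 genes of prolyl 4-hydroxylase that fell and for Serpinh1, the gene of the set with the largest rise. ACGTG or GCGTG, core letters of HIF sites, stood on either strand in all 7 sequences at hand. Those of Plod1, Plod3 and Crtap, which rose, are not shown, and Plod1 and Crtap held GCGTG alone. Whether HIF acts on any of these genes was not tested. Sequences are from RefSeq (GRCm38.p6), whose table had entries for 7 of the 9 genes, all but Loxl2 and Plod2. The windows hold 250 bases before the start, written in the direction of the gene, and capitals mark ACGTG and GCGTG, the core letters of HIF sites, or their reverse complements CACGT and CACGC. The windows are chr10:59323046-59323295 (plus) for P4ha1, chr11:54100674-54100923 (plus) for P4ha2, chr11:120573254-120573503 (minus) for P4hb and chr7:99353240-99353489 (minus) for Serpinh1. The RefSeq start of P4ha2 lies inside the GENCODE span of the gene given above.
P4ha1: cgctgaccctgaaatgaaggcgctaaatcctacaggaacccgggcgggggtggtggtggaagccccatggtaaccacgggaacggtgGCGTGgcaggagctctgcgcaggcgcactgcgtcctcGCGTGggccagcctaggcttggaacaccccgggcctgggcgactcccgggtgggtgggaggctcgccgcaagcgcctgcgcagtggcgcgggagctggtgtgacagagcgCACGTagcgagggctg
P4ha2: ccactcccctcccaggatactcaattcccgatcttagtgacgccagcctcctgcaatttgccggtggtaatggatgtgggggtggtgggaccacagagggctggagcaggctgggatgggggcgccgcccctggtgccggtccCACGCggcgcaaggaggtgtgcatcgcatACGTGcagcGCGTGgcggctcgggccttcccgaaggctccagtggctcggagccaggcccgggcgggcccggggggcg
P4hb: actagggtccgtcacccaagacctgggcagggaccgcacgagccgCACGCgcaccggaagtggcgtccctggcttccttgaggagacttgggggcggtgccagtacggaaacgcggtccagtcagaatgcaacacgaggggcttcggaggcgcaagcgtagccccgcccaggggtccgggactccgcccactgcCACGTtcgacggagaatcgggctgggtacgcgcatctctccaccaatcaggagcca
Serpinh1: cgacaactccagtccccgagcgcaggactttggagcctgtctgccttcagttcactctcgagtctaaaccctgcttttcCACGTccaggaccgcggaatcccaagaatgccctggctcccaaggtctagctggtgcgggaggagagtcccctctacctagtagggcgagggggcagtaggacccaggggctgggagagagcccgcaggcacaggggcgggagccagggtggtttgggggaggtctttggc

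P4ha1 held ACGTG once, on the other strand and starting 16 bases before the start, and GCGTG on the gene strand from 163 and 126 bases before it. P4ha2 held ACGTG from 78, GCGTG from 69 and, on the other strand, GCGTG from 107 bases before the start. ACGTG also stood in Plod3, and thus in 5 of the 7 windows, 3 of genes that fell (P4ha1, P4ha2 and P4hb) and 2 of genes that rose (Serpinh1 and Plod3). GCGTG stood in 6 of the 7 windows, all but that of Serpinh1. Over all 32851 promoter windows of this length in the table, searched on both strands, 16.6% held ACGTG and 28.2% held GCGTG. Over the 13111 windows of genes that were tested, these shares were 21.6% and 44.4%, and 55.6% held either. ACGTG is also part of the E-box CACGTG and of sites of other factors, and a match of 5 letters is only a description of the sequence.

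The lysyl hydroxylases hydroxylate lysine in collagen, PLOD1 mainly in the helix and PLOD2 in the telopeptides at the chain ends, where hydroxylysine leads to stable crosslinks, and PLOD3 also adds sugars to hydroxylysine. Plod2 (ENSMUSG00000032374.14, chromosome 9, 92542223 to 92608428, plus strand) had 208 and 173 counts in degron cells, against 429 and 361 counts in untreated cells. Its levels of 22.7 and 20.7 CPM in degron cells, against 40.6 and 39.1 CPM in untreated cells, differed far more between than within groups. Plod2 was 1.84-fold lower (log2 fold change -0.88 ± 0.10, SE; edgeR adjusted p = 5.61e-12), and 3.79% of tested genes had a lower log2 fold change. It was also called by DESeq2 (adjusted p = 2.43e-06) and against a 1.5-fold minimum (adjusted p = 0.0135).

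Plod1 (ENSMUSG00000019055.15, chromosome 4, 147909753 to 147936767, minus strand) moved the other way, with 618 and 528 counts in degron cells, against 579 and 496 counts in untreated cells. In CPM these were 67.4 and 63.1 in degron cells, against 54.8 and 53.8 in untreated cells (log2 fold change 0.27 ± 0.07, SE; edgeR adjusted p = 0.00145). This rise was not called by DESeq2 (adjusted p = 0.109), nor by edgeR without degron replicate 1 (adjusted p = 0.0682). Plod3 (ENSMUSG00000004846.10, chromosome 5, 136987019 to 136996648, plus strand) had 599 and 526 counts in degron cells, against 541 and 501 counts in untreated cells. Its 65.3 and 62.8 CPM in degron cells, against 51.2 and 54.3 CPM in untreated cells, gave a rise of 1.22-fold (log2 fold change 0.28 ± 0.07, SE; edgeR adjusted p = 0.000784), which DESeq2 did not call (adjusted p = 0.0901). Plod3 shares 529 of 4519 exonic bases with Znhit1 on the opposite strand, which leaves its value uncertain. Znhit1 moved against it, with 22.5 and 26.0 CPM in degron cells and 31.1 and 34.5 CPM in untreated cells. Plod2 shares 346 of 5392 exonic bases with Gm38391, which had at most 1 count per library.

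Summed per length, the 3 lysyl hydroxylase genes had nearly the same level in all libraries, 28.6 and 27.1 CPM per kb in degron cells and 27.0 and 27.2 CPM per kb in untreated cells, but in other proportions. Plod2 made up 14.7% and 14.2% of this sum in degron cells, against 27.9% and 26.7% in untreated cells. The share of Plod3 was 50.5% and 51.4% in degron cells, against 42.0% and 44.1% in untreated cells, and that of Plod1 was 34.8% and 34.5%, against 30.0% and 29.2%. These shares divide the same sum, so they depend on each other, and they carry no test. The Plod3 part is uncertain because of its overlap with Znhit1.

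Serpinh1 (ENSMUSG00000070436.12, chromosome 7, 99345376 to 99353239, minus strand) encodes HSP47, a chaperone of the endoplasmic reticulum that binds folded procollagen and is known as a heat shock gene. It had 1962 and 1918 counts in degron cells, against 1132 and 962 counts in untreated cells, or 214 and 229 CPM against 107 and 104 CPM. The libraries of a pair differed 1.07-fold in degron cells, with a chi-square of 4.47, and 1.03-fold in untreated cells, both far less than the groups. The rise was 2.09-fold (log2 fold change 1.07 ± 0.06, SE; edgeR adjusted p = 3.26e-27), and 97.9% of tested genes had a lower log2 fold change. It held under each library left out, with log2 fold changes of 1.02 to 1.12. Per length, Serpinh1 reached 0.575 and 0.573 times the level of P4hb in degron cells, against 0.251 and 0.236 times in untreated cells.

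Crtap (ENSMUSG00000032431.6, chromosome 9, 114375134 to 114390675, minus strand) encodes cartilage-associated protein, which forms a complex with the prolyl 3-hydroxylase P3H1 and cyclophilin B (Ppib). Its 1303 and 1186 counts in degron cells, against 1113 and 1014 counts in untreated cells, correspond to 142 and 142 CPM in degron cells, against 105 and 109.9 CPM in untreated cells. This was a rise of 1.32-fold (log2 fold change 0.40 ± 0.06, SE; edgeR adjusted p = 1.27e-08), also called by DESeq2 (adjusted p = 0.000124). Among its partners, P3h1 rose less, with 65.6 ± 0.483 CPM in degron cells, against 52.8 ± 1.82 CPM in untreated cells (SD, n = 2; log2 fold change 0.31, edgeR adjusted p = 0.000203). Ppib had 90.8 and 86.7 CPM in degron cells, against 80.9 and 96.4 CPM in untreated cells, where the pair spanned both degron libraries, and was not called (edgeR adjusted p = 0.934). Its value is uncertain, as Ppib shares 825 of 3305 exonic bases with Snx22 on the opposite strand.

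Loxl2 (ENSMUSG00000034205.16, chromosome 14, 69609068 to 69695834, plus strand) encodes a secreted copper enzyme of the lysyl oxidase family that crosslinks collagen, including type IV collagen. It had 1 and 0 counts in degron cells, against 43 and 23 counts in untreated cells, where it was already low. These are 0.109 and 0 CPM in degron cells, against 4.07 and 2.49 CPM in untreated cells. Over both libraries of each group, the ratio of degron to untreated was 0.0171, with a 95% exact binomial interval of 0.000426 to 0.0986 that covers counting error only. Even the upper bound of this interval is a 10.1-fold lower level in degron cells. Loxl2 was called by edgeR (adjusted p = 1.35e-10) and by DESeq2 (adjusted p = 0.00163), while its fitted fold change depends on how near-zero counts are handled and is not given here as a size. Gm27177, which shares 301 exonic bases with Loxl2 on the opposite strand, had 0 counts in every library. No other gene of the 13916 tested had at most 1 count in each degron library and at least 20 counts in each untreated library, a pair of limits that was set after the Loxl2 counts were seen.

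**Figure D3:**
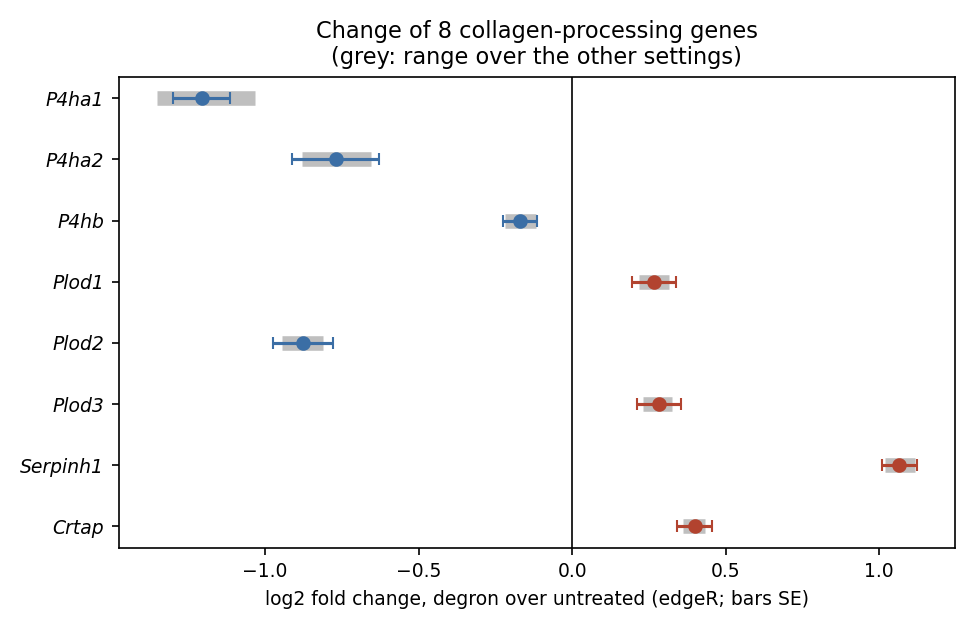
Log2 fold changes, degron over untreated, of the 8 collagen-processing genes with enough counts in every library (Loxl2 is left out). Points and bars are edgeR values ± SE, and grey bands span the values under the other settings. The bands of P4ha1, P4ha2, P4hb and Plod2 stay below 0 and those of Plod1, Plod3, Serpinh1 and Crtap above it.

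Other genes of the pathway were read from 3 lists, whose counts stand against 22.2% of all tested genes higher and 21.6% lower. Of 11 further modifying enzymes and folding factors, 8 were tested, of which 4 rose and 0 fell by edgeR, with a median log2 fold change of 0.16, against 0.01 over all tested genes. P3h4, a partner of lysyl hydroxylase 1, had 14.8 ± 1.23 CPM in degron cells, against 8.04 ± 0.125 CPM in untreated cells (SD, n = 2; edgeR adjusted p = 2.43e-06). Fkbp10, a prolyl isomerase that acts on procollagen, had 9.40 ± 0.286 CPM in degron cells, against 4.56 ± 0.149 CPM in untreated cells (SD, n = 2; edgeR adjusted p = 1.43e-05), but shares 193 of 2935 exonic bases with Nt5c3b on the opposite strand. Fkbp9 also rose (log2 fold change 0.16), while Colgalt1, which adds galactose to hydroxylysine, was not called (log2 fold change 0.08, edgeR adjusted p = 0.231) and shares 495 of 4326 exonic bases with Unc13a on the opposite strand.

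Among 13 genes of procollagen export, all tested, 3 rose and 0 fell, with a median log2 fold change of 0.01, so the share that rose was near the 22.2% of all tested genes. Mia3, which encodes TANGO1, the receptor that loads procollagen at exit sites, had 75.6 ± 0.975 CPM in degron cells, against 54.4 ± 1.76 CPM in untreated cells (SD, n = 2; log2 fold change 0.48, edgeR adjusted p = 2.06e-08). Mia2, which encodes its partner cTAGE5, also rose (log2 fold change 0.34), as did Sec31a of the COPII coat (0.13). Sec13, next in order of p, had a log2 fold change of -0.13 and was not called (edgeR adjusted p = 0.0571). Of 13 genes of extracellular processing, 9 were tested, of which 3 rose and 3 fell, with a median log2 fold change of 0.01. Adamts14, a procollagen N-propeptidase, fell most clearly, with 4.52 ± 0.369 CPM in degron cells, against 12.2 ± 0.482 CPM in untreated cells (SD, n = 2; log2 fold change -1.43, edgeR adjusted p = 1.91e-09). Sparc, a collagen-binding matrix protein and the most abundant of these genes, rose as well (log2 fold change 0.28). Bmp1, the C-propeptidase, was low in both groups and rose (1.28), and Pcolce2, an enhancer of that enzyme, fell (-0.45). Of the other lysyl oxidases, Loxl1 and Loxl3 were not called (log2 fold changes -0.17 and 0.48, edgeR adjusted p = 0.623 and 0.221), with 535 of 4603 exonic bases of Loxl3 shared with Htra2 on the opposite strand, and Lox had 0 counts in both degron libraries, against 0 and 1 counts in the untreated libraries.

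**Figure D4:**
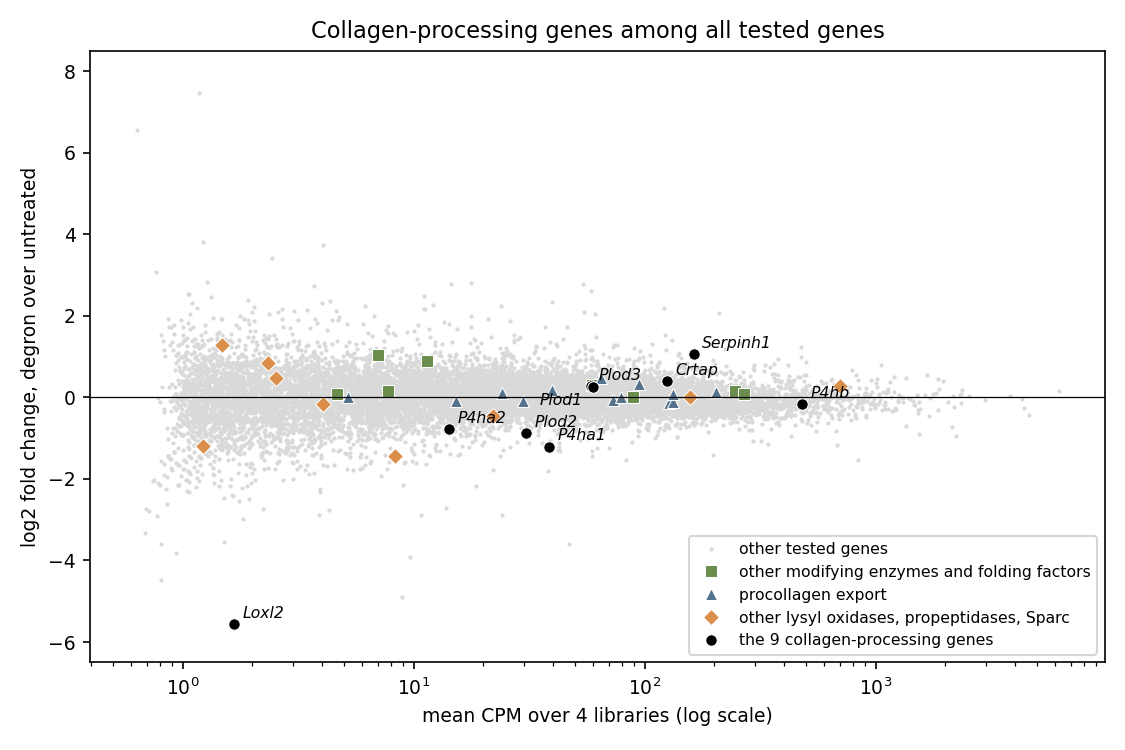
Log2 fold change, degron over untreated (vertical axis), against mean CPM over the 4 libraries (horizontal log axis) for all 13916 tested genes. Grey points are other genes, black points the 9 collagen-processing genes, and coloured marks the 3 lists of further pathway genes. Serpinh1 lies above and P4ha1, Plod2, P4ha2 and Loxl2 below 0, and the height of the Loxl2 point depends on how near-zero counts are handled.

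The substrates of these enzymes were read from the collagen chain genes. Of all 44 such genes, 17 were tested, of which 3 rose and 4 fell by edgeR, with a median log2 fold change of -0.17, and both shares were near those of all tested genes (22.2% and 21.6%). Their CPM summed to 215 and 200 in degron cells, against 233 and 228 in untreated cells. Col18a1, a basement membrane collagen, fell to 64.9 ± 5.04 CPM in degron cells, against 87.0 ± 1.62 CPM in untreated cells (SD, n = 2; edgeR adjusted p = 2.06e-07). Col4a1, of type IV collagen, had 11.7 and 11.8 CPM in degron cells, against 18.7 and 21.2 CPM in untreated cells (edgeR adjusted p = 2.46e-06). Its partner chain in the type IV trimer, Col4a2, had 10.6 and 8.84 CPM in degron cells, against 10.4 and 9.97 CPM in untreated cells, and was not called (log2 fold change -0.07, edgeR adjusted p = 0.773). Col13a1, a transmembrane collagen, also fell (log2 fold change -0.65), whereas Col9a2 and Col26a1 rose (0.42 and 0.69). Among fibrillar chains, Col1a1 was at 0.867 to 1.53 CPM and Col3a1 had 1 count over all libraries, whereas Col5a1 had 15.8 and 16.1 CPM in degron cells, against 17.8 and 14.7 CPM in untreated cells, and was not called (edgeR adjusted p = 0.858).

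P4HB belongs to the protein disulfide isomerases, and 13 other genes of this family were tested, of which 5 rose and 4 fell by edgeR, where 22.2% of all tested genes rose and 21.6% fell, with a median log2 fold change of 0.13. Pdia6 fell most clearly, with 265 and 257 CPM in degron cells, against 431 and 459.6 CPM in untreated cells (edgeR adjusted p = 1.80e-20), and Erp29 fell with a log2 fold change of -0.37 but shares 2210 of 9060 exonic bases with Naa25 on the opposite strand. Tmx3 and Tmx1 rose (0.55 and 0.41), and Pdia3, the most abundant of the 13, was not called (-0.09, edgeR adjusted p = 0.164). Of 18 tested HIF targets outside collagen maturation, 15 fell and 2 rose, where 21.6% of all tested genes fell and 22.2% rose, with a median log2 fold change of -0.98. This list, like the others, was chosen with earlier results of these data known, so its counts only describe it. Ldha, Bnip3, Pgk1 and Ndufa4l2 had log2 fold changes of -1.53, -2.88, -1.16 and -4.88, and Vegfa and Ero1l were the genes that rose (0.78 and 0.21). Bnip3 shares 504 of 2265 exonic bases with Gm45507 on the opposite strand.

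The genes with the pattern most like that of 2 members were looked up by the distance of centred log2 CPM over the 4 libraries, among genes within 2-fold of the member's mean CPM. For P4ha1, with 4547 such genes, these were Bhlhe40 (distance 0.08), a transcriptional repressor, the unannotated transcript Gm49759 (0.14) and Slfn9 (0.20). Bhlhe40 also had uneven untreated libraries, with 14.0 and 14.4 CPM in degron cells, against 38.4 and 30.6 CPM in untreated cells. For Serpinh1, with 2627 such genes, they were Zbtb21 itself (0.11), Piezo1 (0.12), a mechanosensitive ion channel, and Arl14ep (0.13). With 4 libraries such distances only describe the data.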

How the data were processed

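RNA-seq of 2 degron and 2 untreated libraries was analysed from the deposited raw counts per gene. Per the labels and the study's methods, the authors trimmed reads with cutadapt 2.6, mapped them to mm10 with STAR 2.7.6a, kept primary alignments without PCR duplicates and counted them with featureCounts 1.6.3 on GENCODE release 25. Taking out duplicates can understate abundant genes, and genes with a partner on the other strand are uncertain because no source used here gives the strand setting. Symbols, positions and exonic lengths came from GENCODE release 21 (GRCm38), which matched 55141 of 55401 IDs. The tests used edgeR 4.0.16 under R 4.3.3, with filterByExpr, TMM factors and the group as the single term. SE is the size of the log2 fold change divided by the square root of F. Alternatives used DESeq2 1.42.0, which left 13245 of 26808 genes with a count without an adjusted p, and limma 3.58.1. The procedure was also run on counts simulated with 200 changed genes and the spread fitted to these libraries, which cannot show whether replicates were technical. Named were all 9 members, up to 4 genes per list in order of p with the one of highest CPM, and called collagens at 10 CPM or more. The genes most like the called member of smallest p in each direction, and Zbtb21, were also named. Genes outside this rule (Ppib, P4ha3, Lox, Loxl1, Loxl3, Vegfa, Ero1l, Col1a1, Col2a1, Col3a1, Col4a2, Col5a1, Col5a3, Col11a1, Col27a1, the example markers and partners on the other strand) were chosen after their values were seen. Members and lists were chosen with earlier results of these data known.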

Additional observations from a re-analysis of the deposited data

How the results depend on the processing

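All 9 collagen-processing genes kept their direction in every setting that tested them. The 4 genes called higher and 5 called lower by edgeR stayed so with limma-voom, RLE, upper quartile or no scaling beyond library sizes, no low-count filter, protein-coding genes alone, and the replicate block. The stricter filter left out Loxl2. DESeq2 called 2 genes higher and 5 lower. Against a 1.5-fold minimum 1 gene was higher and 3 were lower. With 1 library left out, 3 to 4 genes were higher and 4 to 5 lower. Over all tested genes DESeq2 called 1436 higher and 1483 lower, and the 1.5-fold minimum left 287 and 239, against 3087 and 3006 in edgeR. Library sizes alone gave 3425 higher and 2644 lower. Of the other modification, export and processing genes, 10 were higher and 3 lower by edgeR, 6 and 1 by DESeq2, and 0 and 1 against a 1.5-fold minimum. With 1 library left out, 6 to 9 of them were higher and 2 to 3 lower. Deviations of libraries with equal replicate numbers correlated weakly (0.04). This cannot settle whether the libraries were paired, because counting noise enters each deviation. With the replicate block 3369 genes were higher and 3276 lower. A lone library left in a group was assumed to vary as the other pair does. The smallest counting error was 1.38% for P4hb and the largest, Loxl2 aside, 10.6% for P4ha2. The libraries of a pair varied by more than counting error for P4ha1 in untreated cells and for P4hb in degron cells. This was less clear for Serpinh1 in degron cells, with a chi-square of 4.47. Over all genes, the common coefficient of variation that edgeR fitted within groups, beyond counting error, was 3.31%. Counts of 0 or 1 leave only a bound for Loxl2.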

Other observations

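The untreated libraries differed from each other in part of these genes. P4ha1, P4ha2 and Loxl2 were 1.26-, 1.17- and 1.63-fold apart in the untreated pair, each higher in replicate 1, with chi-squares of 13.7, 2.06 and 3.67, against a mean of 2.10 over the genes of that pair, so that P4ha1 stood apart most. Replicate 1 was higher in 6 of the 9 collagen-processing genes (median ratio 1.03). Of 18 tested HIF targets outside collagen maturation, 12 were higher in that library (median ratio 1.02), as were 60.3% of the 395 genes that fell at least 2-fold and 50.3% of all tested genes. The source of this spread was not tested.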
